A study of Mus musculus with 5 samples.

Results

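The comparison set the nuclei of neonatal mouse muscle fibers (postnatal day 5, P5, in the labels) against those of late fetal muscle fibers (E18.5). Every nucleus carried both a gene expression readout and a chromatin accessibility readout, because the 10x Multiome assay reads RNA and open chromatin from the same droplet. Nuclei were kept when they held 400 to 25000 unique molecular identifiers (UMIs, counted RNA molecules), under 10% of them from mitochondrial genes, and under 70000 counts in peaks. A kept nucleus was taken as a myonucleus, a nucleus of a muscle fiber, when Ttn, Neb, Trdn and Ryr1 together made up at least 1.5% of its UMIs. This gave 1563 myonuclei of 4261 kept nuclei at E18.5 and 1764 of 3747 at P5, or 3327 of the 21156 nuclei kept over the 5 libraries of the series.

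Both libraries came from hindlimb muscle of wild-type (WT) C57bl6n mice without any allele or agent, with 14 hindlimbs pooled at E18.5 and 8 at P5. Nuclei had been stained for PCM1, a protein of the myonuclear surface, and the PCM1-positive and PCM1-negative fractions were mixed in equal volumes, so the share of myonuclei does not measure their share in the tissue. WT libraries of E14.5 (1809 myonuclei) and adult muscle (4429) are quoted as levels only, to place each gene in the longer time course. Each stage was 1 library of pooled animals, so age cannot be told apart from library, no test between stages was possible, and every interval given covers counting error only.

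Skeletal muscle fibers are long cells with many nuclei, formed by fusion of myoblasts. Each nucleus transcribes the genes of the contractile apparatus, and most contractile proteins exist as developmental and adult isoforms that replace each other around birth. In the same period the acetylcholine receptor at the nerve contact exchanges its gamma for its epsilon subunit, and the fiber builds the membrane systems and the fuel supply of mature muscle.

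The summed myonuclei held 12518957 UMIs at E18.5 and 12387258 at P5, with a median of 6971 and 6414 UMIs per nucleus. The 4 genes of the selection took a median of 3.90% of a nucleus's UMIs at E18.5 and 5.51% at P5. Just inside the threshold, from 1.5 to 1.75%, lay 56 and 41 nuclei, and just outside it, from 1.25 to 1.5%, lay 54 and 29. Levels are given as CPM, the UMIs of a gene scaled to 1e+06 UMIs of the summed nuclei, and ratios compare the CPM of the 2 stages. Values in parentheses after a CPM, a share or a fold are 95% intervals. The label held against marker genes that the selection did not use: 11 other myonuclear markers summed to 26244 CPM in the E18.5 myonuclei and 31187 CPM at P5, against 1712 and 1440.2 CPM in the other kept nuclei. Marker genes of other cells were also read in the myonuclei: the 14 mesenchymal markers summed to 3508 and 3058 CPM in myonuclei against 11265 and 13862 CPM in the others. The 11 muscle stem cell markers went from 218 to 100.1 CPM, the 9 Schwann cell markers from 112 to 42.8 CPM, and the 11 macrophage and immune markers from 106 to 370.0 CPM. The smaller lists were at 219 and 229 CPM for tenocytes, 45.6 and 56.7 CPM for cartilage and bone, 86.6 and 91.5 CPM for endothelium, 535 and 478 CPM for smooth muscle and pericytes, 12.8 and 56.3 CPM for adipocytes, and 13.5 and 41.7 CPM for red cells. In the other nuclei the stem cell list was at 344 CPM at both stages and the Schwann list at 76.7 and 123 CPM. The macrophage list was at 583 and 513 CPM there, and smooth muscle at 438 and 451 CPM. Smooth muscle markers at both stages and Schwann markers at E18.5 were thus higher in myonuclei than in the other nuclei. The source of these UMIs was not tested. Settings below that leave out nuclei with RNA of other cells drop myonuclei with over 0.5% of UMIs from these lists, whatever the source of those UMIs. Among the markers at 0 UMIs were Cfd, Pck1 and Slc4a1, each at E18.5. The part of other cells in the results was not tested. The libraries shared 33 of their 4435 (E18.5) and 3848 (P5) barcodes, counted before filtering, and no doublets were removed.

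Of 32285 genes, 11344 had at least 100 UMIs over both sums and were given a ratio. At P5, 707 genes (6.23%) were at least 2-fold higher in CPM than at E18.5 and 1892 (16.7%) were at least 2-fold lower, while 193 and 371 differed at least 4-fold. The median gene stood at a log2 ratio of -0.32, so the split of the calls depended on the scale: higher genes made up 27.2% of the calls in CPM, and 51.3% (1135 higher, 1078 lower) once every ratio was taken relative to the median gene. Counts of list members below stand against 6.23% higher and 16.7% lower of all genes in CPM. Relative to the median gene they stand against 1135 and 1078 of the 11344 genes. The shift of the median gene ran along gene length. Genes under 10 kb had a median log2 ratio of -0.65 with 30.2% of them at least 2-fold lower, and genes over 200 kb had a median of 0.04 with 14.6% lower. Ribosomal protein genes took 0.516% of the UMIs at E18.5 and 0.331% at P5, and mitochondrial genes 0.259% and 0.0924%. Whether these values bear on the ratios of short genes was not tested.

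**Figure D1:**
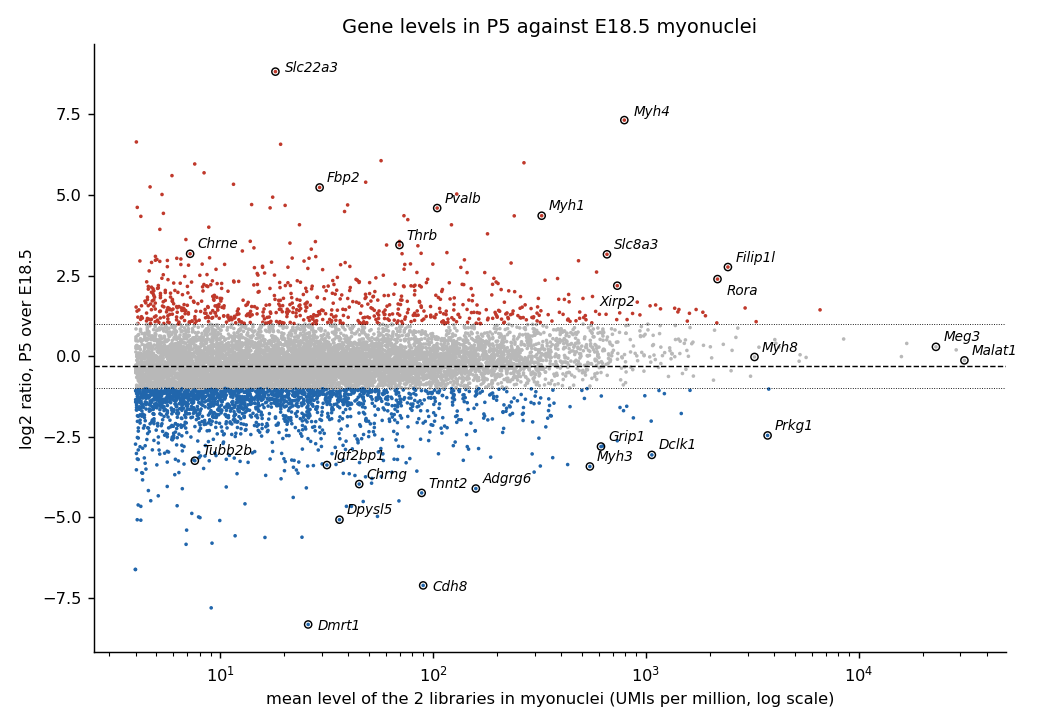
Log2 ratio of P5 to E18.5 (vertical axis) against the mean level of both libraries in CPM (horizontal axis, log scale), with 1 point per gene for the 11344 genes, red and blue for ratios of at least 2-fold, the dashed line at the median of -0.32 and the dotted lines at 2-fold. Myh4 (9.83 against 1572 CPM) lies far above the cloud and Cdh8 (178 against 1.29 CPM) far below it, and blue points outnumber red points.

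The myosin heavy chains, the motor proteins of the sarcomere, were almost all of 2 developmental forms at E18.5 and a mixture with the adult fast forms at P5. Myh4, the fastest adult form, was at 9.83 CPM (8.17 to 11.7) in E18.5 nuclei and 1572 CPM (1550.3 to 1595) in P5 nuclei, a difference of 160.0-fold (134 to 193). Myh1, another adult fast form, was at 30.1 CPM (27.2 to 33.3) in E18.5 nuclei and 617 CPM (603 to 631) in P5 nuclei, or 20.5-fold higher. Myh2, the slower of the adult fast forms, was at 10.1 CPM at E18.5 and 111 CPM at P5. These 3 adult fast genes were low at E18.5, and each was higher again in the adult library, at 2977, 821 and 334 CPM in the same order. Myh3, the embryonic form, was at 997 CPM (979 to 1015) in E18.5 nuclei and 93.2 CPM (87.9 to 98.7) in P5 nuclei, or 10.7-fold (10.1 to 11.4) lower. Myh8, the neonatal form, was at 3261 CPM (3229.5 to 3293) in E18.5 nuclei and 3208 CPM (3176 to 3239.5) in P5 nuclei, a log2 ratio of -0.02 in CPM and 0.29 relative to the median gene, and Myh7, the slow form, was at 114 CPM at E18.5 and 116 CPM at P5. Neonatal myosin RNA thus differed little in CPM between P5 and E18.5, and it was at 0.405 CPM in the adult library.

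As a share of the UMIs of these 6 genes, which is not a level per length, Myh8 made up 73.7% (73.4 to 74.1) of them in E18.5 nuclei and 56.1% (55.7 to 56.5) in P5 nuclei. Myh3 went from 22.5% to 1.63%, Myh4 from 0.222% to 27.5%, Myh1 from 0.681% to 10.8% and Myh2 from 0.229% to 1.94%. Myh7 was at 2.58% and 2.02%. In total the 6 genes took 0.442% of the myonuclear UMIs at E18.5 and 0.572% at P5. The adult library was made up of Myh4 (71.7%), Myh1 (19.8%) and Myh2 (8.03%), and the E14.5 library of Myh3 (67.5%), Myh8 (22.4%) and Myh7 (9.47%), so of the 4 WT libraries P5 alone held over 10% of both a developmental and an adult form. The sources used here do not state how reads shared between these closely related genes were assigned. Myhas, a noncoding RNA at chr11:67211256-67237573 (GRCm38) among the fast myosin genes, was at 1.68 CPM (1.04 to 2.56) in E18.5 nuclei and 112 CPM (106 to 118) in P5 nuclei, and its reads may overlap those of its neighbors.

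**Figure D2:**
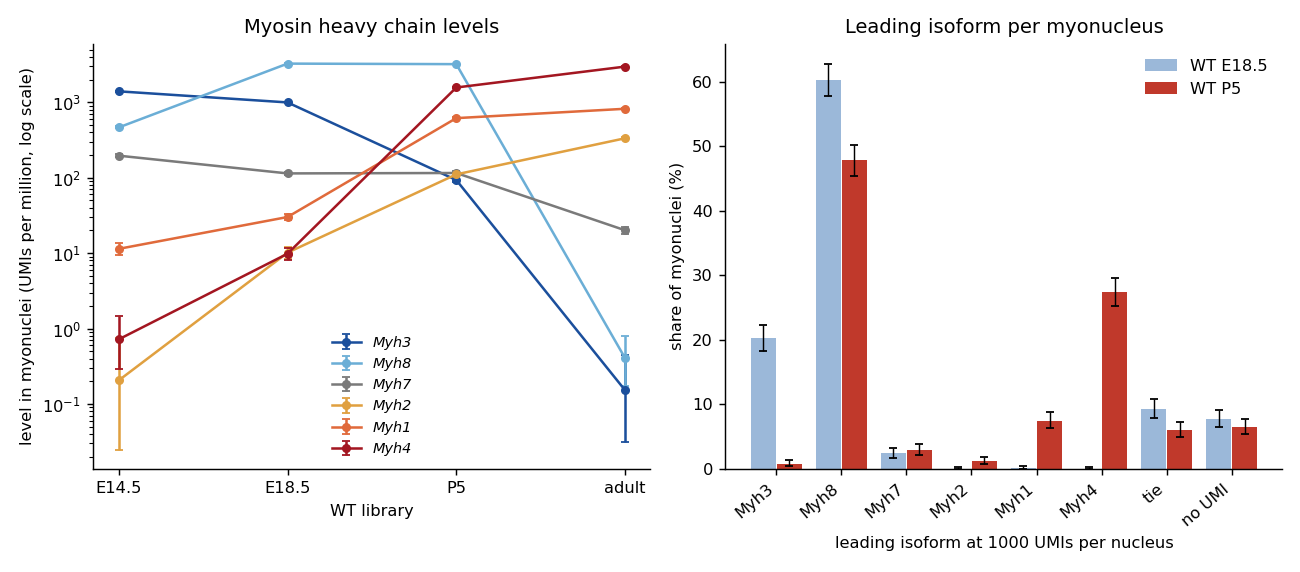
Left, level of 6 myosin heavy chain genes in the summed myonuclei of each WT library (vertical axis, CPM, log scale), and right, share of thinned myonuclei (vertical axis, percent) in which each isoform led, for E18.5 and P5, all with 95% intervals for counting error. Myh8 is level between E18.5 and P5 while Myh4 crosses Myh3, and Myh4 leads in 27.4% of the P5 nuclei.

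Single nuclei were compared after drawing 1000 UMIs from each, which left out 5 nuclei at E18.5 and 89 at P5 that held fewer. Myh8 was the leading myosin in 60.3% (57.8 to 62.7) of the 1558 E18.5 nuclei and in 47.8% (45.4 to 50.2) of the 1675 P5 nuclei. Myh3 led in 20.2% of nuclei at E18.5 and 0.776% at P5. Myh4 led in 0 of 1558 nuclei at E18.5, which allows up to 0.236%, and in 27.4% (25.3 to 29.6) at P5, while Myh1 led in 0.128% and 7.46%. Myh7 led in 2.37% and 2.87% of nuclei, so slow nuclei were a small group at both stages. Ties took 9.31% and 6.03%, and 7.70% and 6.51% of nuclei drew no myosin UMI.

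Many P5 nuclei carried both classes of myosin RNA. Among nuclei with at least 10 myosin UMIs, 846 of 1489 (56.8%) at P5 had at least 3 UMIs of Myh8 and at least 3 of the adult fast genes, against 56 of 1360 (4.12%) at E18.5. The adult fast genes made up over 50% of the myosin UMIs in 620 nuclei (41.6%) at P5 and in 1 at E18.5. At the other end, 211 P5 nuclei had no adult fast myosin UMI. These counts were taken without thinning. As a background for such UMIs, without thinning Myh8 was seen in 11.5% and Myh4 in 4.84% of the other P5 nuclei, against 82.1% and 53.7% of the P5 myonuclei. After thinning the shares were 3.79% and 1.21% against 67.7% and 41.9%.

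The P5 nuclei also differed among themselves along this axis. With nuclei rich in Myh7 left out, 618 nuclei in which adult fast myosin exceeded 50% were set beside 350 in which it stayed under 10%. These are ranges of a score, not cell types, and 163 nuclei lay between 40 and 60%. Of 527 genes at least 2-fold higher at P5 than at E18.5, 75.1% were higher by any amount in the nuclei rich in adult myosin (median log2 ratio 0.36). The share was 17.0% of the 560 genes at least 2-fold lower at P5 (median -0.39) and 43.1% of all 6859 genes (median -0.05). Differences of at least 2-fold between these nuclei were fewer. Of the 527 genes 61 were higher and 10 lower, of the 560 genes 0 and 74, and of all genes 86 and 177. Both splits use the P5 library, so these shares are a description of that library. Slc22a3, an organic cation transporter, was at 62.3 CPM in the nuclei rich in adult myosin and 10.3 CPM in the others, and Pvalb, the calcium buffer parvalbumin, at 339 and 91.9 CPM. Col25a1, a membrane collagen needed for motor innervation, ran the other way at 31.6 and 498 CPM, or 15.8-fold (13.3 to 18.8). Chrne did so too, at 7.64 and 31.5 CPM, although it was higher at P5 than at E18.5.

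**Figure D3:**
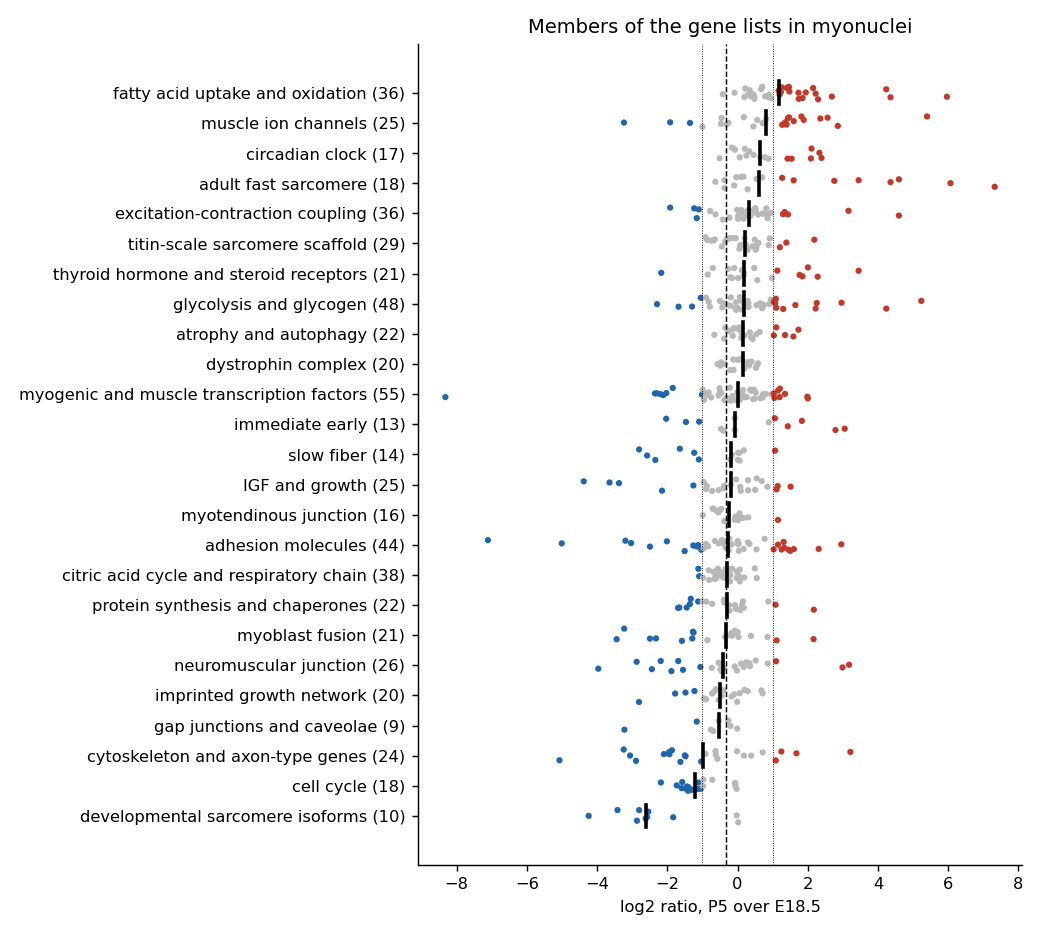
Log2 ratio of P5 to E18.5 (horizontal axis) for the tested members of each textbook gene list (rows), with 1 point per gene, the number tested in parentheses, red and blue for ratios of at least 2-fold, the list median as a bar and the median of all genes as a dashed line. Of the textbook lists plotted, which leave out those chosen by the study, developmental sarcomere isoforms lie lowest (median -2.60) and fatty acid genes highest (median 1.18), against a median of -0.32 for all genes.

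Sarcomere genes split by isoform. Of 10 developmental sarcomere isoforms tested, 0 were at least 2-fold higher and 8 were lower, where 6.23% and 16.7% of all genes were, with a median log2 ratio of -2.60, which was -2.28 relative to the median gene. Tnnt2, the cardiac form of troponin T, was at 168 CPM (161 to 175) in E18.5 nuclei and 8.88 CPM (7.30 to 10.7) in P5 nuclei, or 18.9-fold (15.6 to 23.1) lower. Actc1, cardiac actin, was at 536 CPM at E18.5 and 92 CPM at P5, and Myl4, the embryonic light chain, at 288 CPM at E18.5 and 39.5 CPM at P5. Of 18 adult fast sarcomere genes, 8 were higher and 0 lower, with a median log2 ratio of 0.62, which was 0.94 relative to the median gene. Mybpc2, which encodes fast myosin binding protein C, was at 34.8 CPM (31.6 to 38.3) in E18.5 nuclei and 235 CPM (227 to 244) in P5 nuclei, or 6.75-fold (6.10 to 7.48) higher. Pvalb was at 8.31 CPM (6.79 to 10.1) in E18.5 nuclei and 201 CPM (193 to 209) in P5 nuclei, or 24.2-fold (19.9 to 29.7) higher, and Actn3, the fast fiber alpha-actinin, at 68.6 CPM at E18.5 and 208 CPM at P5. Other abundant genes of fast muscle were within 2-fold of their fetal level: Ckm, muscle creatine kinase, was at 359 CPM at E18.5 and 349.8 CPM at P5, Mylpf, the fast regulatory light chain, at 699 CPM at E18.5 and 451 CPM at P5 and Myl1 at 3795 CPM at E18.5 and 4624 CPM at P5.

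Slow fiber genes were found on both sides. Of 14, 1 was higher and 6 (42.9%) were lower (1 higher and 4 lower relative to the median gene), with a median log2 ratio of -0.18, which was 0.14 relative to the median gene, so the sign of the list median depended on the scale. Tnni1 and Tnnc1, the slow troponins I and C, which fetal fast fibers also use, were 6.98-fold and 5.96-fold lower, at 253 and 36.2 CPM for Tnni1 and 149.5 and 25.1 CPM for Tnnc1. Myh7b was at 87.5 CPM at E18.5 and 17.3 CPM at P5, and Casq2, the calcium store protein of slow and cardiac muscle, at 866 CPM at E18.5 and 368 CPM at P5, a call that was lost relative to the median gene. Of 29 scaffold genes of the sarcomere, 3 were higher and 0 lower (5 higher and 0 lower relative to the median gene), with a median log2 ratio of 0.20 in CPM, and the list holds Ttn and Neb, which the selection used. Xirp2, an actin-binding protein of the Z-disc and tendon end, was at 264 CPM (255 to 273) in E18.5 nuclei and 1202 CPM (1183 to 1222) in P5 nuclei, or 4.55-fold (4.38 to 4.73) higher, and Nrap, an anchor of growing myofibrils, was at 320.5 CPM at E18.5 and 839.8 CPM at P5. None of 20 tested genes of the dystrophin complex was called in either direction, in CPM or relative to the median gene (median 0.15). Dmd itself, dystrophin, was at 14497 CPM at E18.5 and 19074 CPM at P5.

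Calcium handling and excitability genes were among the higher groups. The list of muscle ion channels also holds the water channel Aqp4. Of its 25 tested genes, 12 (48%) were higher and 3 (12%) lower, where 6.23% and 16.7% of all genes were. The list median was a log2 ratio of 0.82, which was 1.14 relative to the median gene. Scn4b, a beta subunit of the sodium channel, was 7.24-fold (4.75 to 11.5) higher. Kcnq5, a voltage-gated potassium channel, was at 109.6 CPM at E18.5 and 562 CPM at P5. Aqp4, a water channel of fast fibers, was at 2.24 CPM (1.49 to 3.23) in E18.5 nuclei and 94.2 CPM (88.9 to 99.8) in P5 nuclei, or 42.1-fold (29 to 63.7) higher. Kcnk13, a potassium leak channel, was lower, at 106 CPM at E18.5 and 11.2 CPM at P5. Of 36 genes of excitation-contraction coupling, which include Ryr1 and Trdn of the selection, 6 (16.7%) were higher and 4 (11.1%) lower (median 0.32 in CPM). Relative to the median gene, 12 of them were higher and 1 lower. Slc8a3, the muscle sodium-calcium exchanger, was at 132 CPM (126 to 138) in E18.5 nuclei and 1179.5 CPM (1160.5 to 1199) in P5 nuclei, or 8.94-fold (8.49 to 9.41) higher, and Jph1, which holds the triad membranes together, was at 1035 CPM at E18.5 and 2664 CPM at P5. Sln, sarcolipin, an inhibitor of the calcium pump, was lower at 112 CPM at E18.5 and 29.7 CPM at P5.

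At the neuromuscular junction the fetal and adult receptor subunits differed in opposite directions. Chrng, the fetal gamma subunit of the acetylcholine receptor, was at 84.5 CPM (79.5 to 89.8) in E18.5 nuclei and 5.41 CPM (4.19 to 6.87) in P5 nuclei, or 15.6-fold (12.2 to 20.3) lower. Chrne, the adult epsilon subunit, was at 1.44 CPM (0.852 to 2.27) in E18.5 nuclei and 13 CPM (11.1 to 15.2) in P5 nuclei, or 9.04-fold (5.54 to 15.6) higher, and it had been listed at 0 CPM at E14.5. Chrne reached 1.37% of the thinned P5 myonuclei, against 0 of 1899 other nuclei of the same library, which allows up to 0.194%. The median depth of these myonuclei and other nuclei was 6414 and 4373 UMIs. Without thinning the share of P5 myonuclei with a Chrne UMI was 4.20%. Of 26 junction genes tested, 3 (11.5%) were higher and 8 (30.8%) lower, against 6.23% and 16.7% of all genes. Their median log2 ratio was -0.41, which was -0.10 relative to the median gene. Col25a1 was at 532 CPM at E18.5 and 165 CPM at P5, Nav3, a microtubule-guiding protein, at 1211 CPM at E18.5 and 413 CPM at P5, and Erbb4, a neuregulin receptor, at 2176 CPM at E18.5 and 1044 CPM at P5, which was no longer 2-fold lower relative to the median gene. Erbb3, another neuregulin receptor and a Schwann cell marker, was at 73.4 CPM at E18.5 and 10.0 CPM at P5 in myonuclei and at 14.8 and 7.58 CPM in other nuclei. At the tendon end, 1 of 16 genes was higher and 0 lower (median -0.23, or 0.09 relative to the median gene).

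Fuel genes separated by pathway. Of 36 genes of fatty acid uptake and oxidation, 19 were higher and 0 lower, with a median log2 ratio of 1.18, which was 1.5 relative to the median gene. Angptl4, a secreted inhibitor of lipoprotein lipase, was at 0.240 CPM (0.0494 to 0.700) in E18.5 nuclei and 14.9 CPM (12.9 to 17.2) in P5 nuclei, or 62.3-fold (21 to 305) higher. Pdk4, the kinase that closes pyruvate entry into the citric acid cycle, was at 7.67 CPM (6.21 to 9.36) in E18.5 nuclei and 144 CPM (138 to 151) in P5 nuclei, or 18.8-fold (15.3 to 23.4) higher, and Ucp3, a mitochondrial carrier of muscle, was at 6.79 CPM (5.42 to 8.40) in E18.5 nuclei and 139 CPM (133 to 146) in P5 nuclei, or 20.5-fold (16.5 to 25.8) higher. Cpt1a and Cd36, which bring fatty acids into the mitochondrion and into the cell, were at 8.15 and 52.4 CPM and at 243 and 878 CPM. Cd36 is also an endothelial and adipocyte gene, and it was at 29.1 and 94 CPM in the other nuclei.

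Of 48 genes of glycolysis and glycogen, 11 were higher and 4 lower, with a median log2 ratio of 0.18, which was 0.49 relative to the median gene. Fbp2, muscle fructose bisphosphatase, was at 1.52 CPM (0.914 to 2.37) in E18.5 nuclei and 57.1 CPM (52.9 to 61.4) in P5 nuclei, or 37.6-fold (23.9 to 62.8) higher, and Phkg1, the catalytic subunit of phosphorylase kinase, was 7.78-fold (7.36 to 8.24) higher. Slc2a1, the glucose transporter of fetal muscle, was at 8.31 CPM at E18.5 and 1.70 CPM at P5, or 4.90-fold (3.04 to 8.25) lower. Genes of the citric acid cycle and the respiratory chain showed no call in the higher direction: 0 of 38 were higher and 2 lower (Cycs and Ndufb5, both lost relative to the median gene), with a median log2 ratio of -0.30, which was 0.02 relative to the median gene. The oxidation genes and the respiratory chain genes thus had list medians of 1.18 and -0.30 in the same nuclei. Ratios also ran along gene length, as given above, and the gene lengths of these lists were not compared.

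Among 55 muscle transcription factors 8 were higher and 8 lower (12 higher and 7 lower relative to the median gene), with a median log2 ratio of 0.02, which was 0.33 relative to the median gene. Dmrt1, a factor best known from the gonads, was at 51.6 CPM (47.7 to 55.7) in E18.5 nuclei and 0.161 CPM (0.0196 to 0.583) in P5 nuclei, or 319.6-fold (88.1 to 2645) lower on 2 UMIs at P5, and it was at 1.75 CPM at E14.5. Myog, the myogenic factor of differentiation, was at 50.2 CPM at E18.5 and 10.3 CPM at P5, and Tead4 and Klf5 were 3.59-fold and 5.10-fold lower. Vgll3, a cofactor of the TEAD proteins, was at 125 CPM at E18.5 and 27.4 CPM at P5. These 3 factors, Myog, Tead4 and Klf5, are the study's own fetal list and were chosen on these libraries. Its 5 adult factors held 4 that were higher, led by Thrb, a thyroid hormone receptor, at 11.7 CPM (9.85 to 13.7) in E18.5 nuclei and 127 CPM (121 to 134) in P5 nuclei, or 10.9-fold (9.21 to 13), with 1749 CPM in the adult library. Esr1, estrogen receptor alpha, was at 31.7 CPM at E18.5 and 154 CPM at P5, and Maf at 85.2 CPM at E18.5 and 218 CPM at P5. Of its 5 neonatal factors 2 were higher: Nfic at 56.1 CPM at E18.5 and 125 CPM at P5 and Prrx1 at 172 CPM at E18.5 and 376 CPM at P5, and Prrx1 was at 369 and 427 CPM in the other nuclei, where it marks mesenchyme. Nfix was at 108 CPM at E18.5 and 177 CPM at P5, below the 2-fold line in CPM and just past it relative to the median gene. The study's developmental genes (7 of 9 lower, median -3.42) and mature fast genes (3 of 5 higher, median 1.60) were also picked on these libraries, and 0 of 4 embryonic factors was called.

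Hormone receptor and clock genes were higher more often than lower. Of 21 genes of thyroid and steroid signaling, 6 were higher and 1 lower, with a median log2 ratio of 0.18, which was 0.49 relative to the median gene. Fkbp5, a cochaperone induced by glucocorticoids, was the lower gene, at 74.6 CPM at E18.5 and 16.5 CPM at P5. Of 17 clock genes 6 were higher and 0 lower, with a median log2 ratio of 0.65, which was 0.96 relative to the median gene. Rora, a nuclear receptor of the clock, was at 694 CPM (679.6 to 709) in E18.5 nuclei and 3641 CPM (3608 to 3675) in P5 nuclei, or 5.25-fold (5.13 to 5.37) higher, and Per3 and Bhlhe41 were 4.26-fold and 5.03-fold higher.

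Genes of the young cytoskeleton, fusion and the cell cycle were set against the 16.7% of all genes that were lower. Of 24 cytoskeletal genes, 12 (50%) were lower and 4 higher, with a median log2 ratio of -0.97, which was -0.66 relative to the median gene. Tubb2b, a tubulin of growing cells, was at 13.7 CPM at E18.5 and 1.45 CPM at P5, Dpysl5, a collapsin response protein, at 70.5 CPM at E18.5 and 2.10 CPM at P5 and Dclk1, a doublecortin-like kinase, at 1903 CPM (1879 to 1927) in E18.5 nuclei and 228 CPM (219.6 to 237) in P5 nuclei. Mapt, the microtubule protein tau, was higher, at 22.6 CPM at E18.5 and 209.6 CPM at P5. Of 21 fusion genes, 8 (38.1%) were lower and 2 higher (3 higher and 5 lower relative to the median gene). The median log2 ratio was -0.32, like that of all genes (-0.01 relative to the median gene, and -1.15 once myonuclei with over 0.5% of UMIs from other cell types were left out). Mymk, the myomaker fusogen, was at 40.4 CPM (37 to 44.1) in E18.5 nuclei and 3.71 CPM (2.72 to 4.95) in P5 nuclei, or 10.9-fold (8.04 to 15.1) lower. Of 18 cell cycle genes 12 (66.7%) were lower and 0 higher (0 higher and 8 lower relative to the median gene), with a median log2 ratio of -1.21, which was -0.90 relative to the median gene. Cdkn1a, the arrest protein p21, was among the lower genes, at 45.5 CPM at E18.5 and 10.0 CPM at P5. The cell cycle list summed to 383 and 169 CPM in myonuclei and to 1825 and 869.7 CPM in the other nuclei, so it was higher in other nuclei and lower at P5 in both. The stem cell markers, which share Cdh15 with the fusion list, were also lower in these nuclei, as given above.

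Of 25 genes of insulin-like growth factor signaling, 5 were lower and 3 higher (5 higher and 4 lower relative to the median gene, median -0.19, or 0.12 relative to the median gene, 0.08 without myonuclei holding RNA of other cells and 0.12 at a marker threshold of 3%). Igf2bp1 and Hmga2, both fetal growth genes, were 10.4-fold (8.10 to 13.5) and 12.5-fold (9.87 to 16.1) lower, and Igf2 was at 595 CPM at E18.5 and 319 CPM at P5. Of 20 imprinted genes of the growth network 4 (20%, near the 16.7% of all genes) were lower and 0 higher (1 higher and 3 lower relative to the median gene, median -0.49, or -0.18 relative to the median gene), with Peg10 at 126 CPM at E18.5 and 18 CPM at P5. The forms of elongation factor 1A differed in opposite directions: Eef1a1, the form of most cells, was at 144 CPM at E18.5 and 44.4 CPM at P5, and Eef1a2, its muscle and neuron form, was at 9.83 CPM (8.17 to 11.7) in E18.5 nuclei and 44.2 CPM (40.6 to 48.1) in P5 nuclei, or 4.50-fold (3.70 to 5.52) higher. Of 22 atrophy and autophagy genes 5 were higher and 0 lower (median 0.16), among them Fbxo32, the ligase atrogin-1, at 10.3 CPM at E18.5 and 26.3 CPM at P5.

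Adhesion molecules were found on both sides, 10 (22.7%) higher and 11 (25%) lower of 44, against 6.23% and 16.7% of all genes. Relative to the median gene, 11 were higher and 7 lower. The list median was -0.27, or 0.05 relative to the median gene, -0.74 without myonuclei holding RNA of other cells and 0.02 at a marker threshold of 3%. Cdh8, a cadherin better known from neurons, was at 178 CPM (171 to 186) in E18.5 nuclei and 1.29 CPM (0.738 to 2.10) in P5 nuclei, or 138-fold (84.8 to 242) lower, and at 278 and 0.202 CPM in the E14.5 and adult libraries. Ncam1, the neural cell adhesion molecule, was at 1696 CPM (1673 to 1719) in E18.5 nuclei and 420.2 CPM (409 to 432) in P5 nuclei, or 4.04-fold (3.91 to 4.16) lower. Of the 9 caveolar and gap junction genes 2 (22.2%) were lower and 0 higher (median -0.53, or -0.22 relative to the median gene). Of the 22 genes of protein synthesis and chaperones 6 (27.3%) were lower and 2 (9.09%) higher (median -0.31, or 0.01 relative to the median gene). Among 13 immediate early genes 5 were higher and 3 lower, with a median log2 ratio of -0.08 that was 0.24 relative to the median gene, 0.54 without myonuclei holding RNA of other cells and 0.39 at a marker threshold of 3%. Nr4a3 was at 1.92 CPM at E18.5 and 15.9 CPM at P5 and Egr1 at 17.2 CPM at E18.5 and 4.20 CPM at P5. Nr4a3, an orphan nuclear receptor, and Egr1, a zinc finger factor, are both induced by many stimuli.

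By ratio alone, the gene farthest up was Slc22a3, at 0.0799 CPM (0.00202 to 0.445) in E18.5 nuclei and 36.2 CPM (33 to 39.8) in P5 nuclei, with 1 UMI at E18.5 and a ratio of 454-fold (81 to 17962). By CPM gained, Meg3, a noncoding RNA, led apart from the genes of the selection, at 20712 CPM at E18.5 and 25327 CPM at P5, followed by Dmd, as given above. Filip1l, Rora, Zbtb20 and Ctnna3 came next: Filip1l, a filamin-interacting protein, was at 622 CPM (609 to 636) in E18.5 nuclei and 4230.0 CPM (4194 to 4266) in P5 nuclei, Zbtb20, a transcriptional repressor, at 1530.1 CPM at E18.5 and 4314 CPM at P5 and Ctnna3, alpha-T-catenin, at 2123 CPM at E18.5 and 4461 CPM at P5. The largest losses in CPM were those of Prkg1, Malat1, Dlg2 and Dclk1: Prkg1, the cGMP-dependent kinase, was at 6305 CPM (6261 to 6349) in E18.5 nuclei and 1148 CPM (1129 to 1167) in P5 nuclei, Malat1, a nuclear noncoding RNA, at 32732 CPM at E18.5 and 29927 CPM at P5 (log2 ratio -0.13, or 0.19 relative to the median gene) and Dlg2, a scaffold protein, at 5053 CPM at E18.5 and 2493 CPM at P5. Dlg2 was no longer 2-fold lower relative to the median gene, and Ctnna3 (log2 ratio 0.87) and Dlg2 were under 2-fold at a marker threshold of 3%.

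Genes with at least 20 CPM at P5 that passed the other filters for named genes, given under processing, were examined for a peak at P5. Of these 2393 genes, 539 had their highest WT level at P5. For 16 the P5 level was at least 4-fold above each of the E14.5, E18.5 and adult levels. Genes below 20 CPM at P5 could not enter, so these counts are not shares of all genes. Ano4, a membrane protein of the anoctamin family, was at 0.719, 23.8, 144 and 24.6 CPM over the E14.5, E18.5, P5 and adult libraries in turn. Mrc1, the macrophage mannose receptor, was at 3.29, 49.7, 299.9 and 36.3 CPM, and it reached 19.3% of the thinned P5 myonuclei (45.7% unthinned) against 4.63% (7.06%) of the other nuclei. Mrc1 supplied most of the macrophage list in the P5 myonuclei, and Adgre1 and Cx3cr1, which also mark macrophages, were at 8.07 and 16.1 CPM there. Among the examined genes, 335 were at least 2-fold higher at P5 than at E18.5. Of these, 172 were higher again in the adult library and 163 were lower there than at P5.

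Accessibility is given as the counts of a peak per 1e+06 counts in peaks, also written CPM, and was compared on 57399 pairs of peaks, called separately in each library and overlapping by at least 50% of both. Of the 91265 E18.5 peaks 33507 overlapped no P5 peak, and of the 67013 P5 peaks 9340 overlapped no E18.5 peak. The myonuclei held 14651963 and 11990017 peak counts, of which the paired peaks took 86.1% and 94.6%. Of 45394 pairs with at least 100 counts over both libraries, 3094 (6.82%) were at least 2-fold higher at P5 and 1415 (3.12%) were lower, with a median log2 ratio of 0.14. Higher peaks made up 68.6% of the calls, and 50.4% (2136 higher, 2104 lower) relative to the median pair. Calls were rarer near genes' starts: within 1 kb of a transcription start 2.05% of 16064 pairs were higher and 1.52% lower, and farther away 9.42% of 29330 were higher and 3.99% lower. These shares are in CPM over all peaks, with median log2 ratios of 0.06 and 0.22. They were not taken relative to the median pair, so their balance of higher and lower pairs depends on the scale.

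Start sites differed in accessibility mainly where the RNA differed most. Genes with RNA at least 4-fold lower at P5 had a median log2 ratio of -0.31 at their start peaks (294 genes, 19% above even), and genes with RNA at least 4-fold higher had a median of 0.60 (141 genes, 90.1% above even). Genes with RNA 2- to 4-fold higher stood at 0.27. The 1379 genes with RNA 2- to 4-fold lower stood at -0.02 with 47.6% above even, so their starts hardly differed, against all genes at 0.08 with 61.9% above even. The accessibility differences were smaller than the RNA differences: of the 141 genes, 34 had a start at least 2-fold more accessible. Tubb2b was at 42.6 CPM at E18.5 and 10.0 CPM at P5 at its start, or 4.26-fold (3.22 to 5.71) lower, Chrng at 57.3 CPM at E18.5 and 20.5 CPM at P5 over 2 peaks and Tnnt2 at 29.6 CPM at E18.5 and 10.3 CPM at P5. Fbp2 was at 19.8 CPM at E18.5 and 53.5 CPM at P5, or 2.71-fold (2.22 to 3.31) higher, Pdk4 at 42.7 CPM at E18.5 and 93.4 CPM at P5 and Angptl4 at 7.64 CPM at E18.5 and 31.2 CPM at P5, or 4.08-fold (3.01 to 5.6) higher.

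Some starts were called as peaks in a single library. Start peaks of Myh3 (28.3 CPM), Mymk (30.4 CPM over 2 peaks) and Tnni1 (52.6 CPM over 2 peaks) were called at E18.5 and had no partner at P5. Start peaks of Myh4 (33.1 CPM, a peak it shares with Myhas), Ucp3 (27.6 CPM) and Ampd1 (21.4 CPM), the muscle AMP deaminase, were called at P5 and had no partner at E18.5. A missing partner is not a level of 0, since a peak of the other library may overlap by less. Each list also holds only regions above the caller's threshold. Other starts hardly differed while the RNA did: Klf5 was at 49.1 CPM at E18.5 and 51 CPM at P5, Tead4 at 75.8 CPM at E18.5 and 71.8 CPM at P5, Thrb at 22.5 CPM at E18.5 and 25.9 CPM at P5 and Kcnq5, with 5.13-fold more RNA, at 16.6 CPM at E18.5 and 14.2 CPM at P5.

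**Figure D4:**
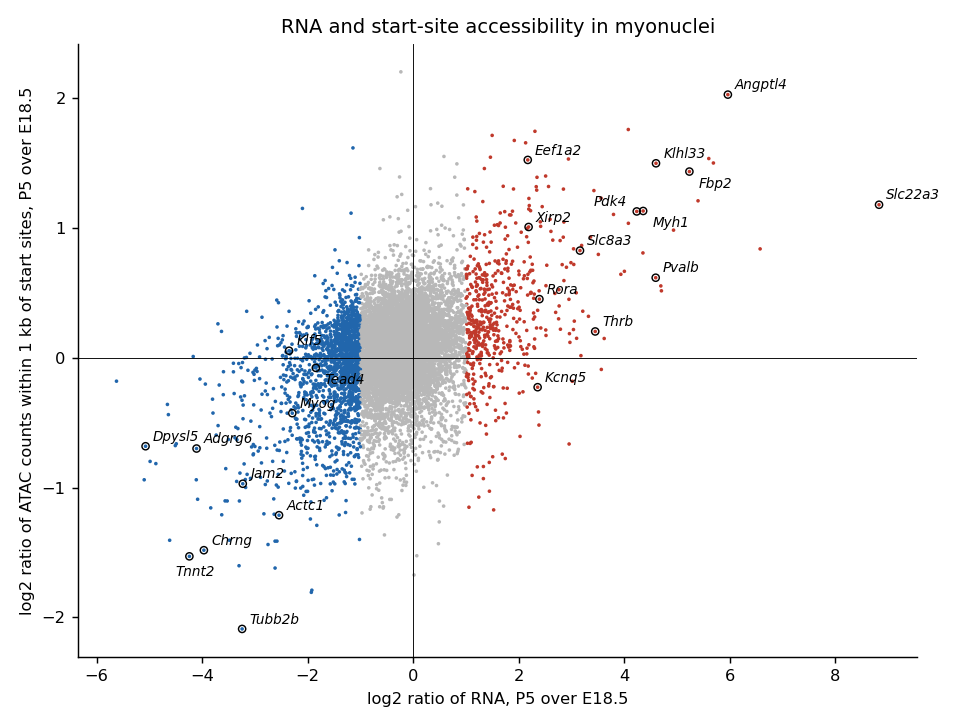
Log2 ratio of P5 to E18.5 in accessibility at start sites (vertical axis) against that in RNA (horizontal axis), with 1 point per gene with paired start peaks, red and blue for RNA ratios of at least 2-fold and some genes marked. Tubb2b, Tnnt2 and Chrng lie low on both axes, and Angptl4, Fbp2 and Pdk4 high on both.

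The promoters of 4 genes that stand at these extremes are shown, as RefSeq gives them for GRCm38, from 250 bases before to 50 bases after the start, on the gene's strand. Chrng and Tnnt2 were less accessible at P5, Fbp2 was more accessible, and the Myh4 start peak of P5 had no partner at E18.5. Of the 246 named genes, 183 had a promoter in the RefSeq table. Capitals mark matches on either strand to 9 short motifs: E-box CAGCTG, TEAD GGAATG, NFI half-site TTGGCA, nuclear receptor half-site AGGTCA, AP-1 TGANTCA, Maf half-site TGCTGAC, RUNX TGTGGT, and the MEF2 and CArG sites by name. The positions are chr1:87205561-87205860 (plus strand), chr1:135836084-135836383 (plus), chr13:62858351-62858650 (minus) and chr11:67237562-67237861 (plus).
Chrng: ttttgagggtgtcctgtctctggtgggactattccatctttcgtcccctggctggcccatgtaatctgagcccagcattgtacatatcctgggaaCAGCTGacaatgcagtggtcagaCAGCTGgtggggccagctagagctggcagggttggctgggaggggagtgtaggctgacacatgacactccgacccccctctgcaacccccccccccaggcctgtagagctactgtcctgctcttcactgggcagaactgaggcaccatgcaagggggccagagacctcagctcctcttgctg
Tnnt2: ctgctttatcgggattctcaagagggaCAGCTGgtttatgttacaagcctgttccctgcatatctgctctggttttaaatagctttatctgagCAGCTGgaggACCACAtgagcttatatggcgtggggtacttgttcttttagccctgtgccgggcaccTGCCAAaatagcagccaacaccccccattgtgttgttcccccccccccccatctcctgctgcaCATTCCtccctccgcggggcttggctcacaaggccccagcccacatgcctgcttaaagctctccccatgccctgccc
Fbp2: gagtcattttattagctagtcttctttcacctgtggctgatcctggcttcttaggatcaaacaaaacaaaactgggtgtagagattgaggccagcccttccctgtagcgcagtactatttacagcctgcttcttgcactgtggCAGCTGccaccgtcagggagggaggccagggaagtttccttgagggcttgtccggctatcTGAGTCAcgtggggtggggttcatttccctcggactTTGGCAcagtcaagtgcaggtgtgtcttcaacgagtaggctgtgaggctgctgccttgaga
Myh4: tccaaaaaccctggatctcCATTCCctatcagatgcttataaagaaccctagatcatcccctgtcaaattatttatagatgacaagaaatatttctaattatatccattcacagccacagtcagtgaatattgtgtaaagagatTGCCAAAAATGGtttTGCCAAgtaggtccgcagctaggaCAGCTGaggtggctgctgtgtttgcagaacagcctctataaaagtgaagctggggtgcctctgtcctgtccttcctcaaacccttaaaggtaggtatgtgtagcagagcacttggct

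The Chrng promoter held 2 E-boxes, at positions 96 and 119 of the printed run, and no other match. The printed Tnnt2 promoter held E-boxes at 28 and 94 and single RUNX, NFI and TEAD matches, and a second RefSeq promoter of Tnnt2, at chr1:135836739-135837038, held 0 matches. Fbp2 held single E-box, AP-1 and NFI matches, and Myh4 an E-box at 184, TEAD at 20, NFI at 145 and 160, and a CArG site at 147 that overlaps the first NFI match. Of all 32851 RefSeq promoter windows of this length, 16.3% held the E-box, 14.7% TEAD, 14.1% NFI, 16.8% RUNX, 7.81% AP-1 and 1.63% the CArG site. A match is a run of letters and not a bound site.

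The pairs with the most extreme ratios all lay over 1 kb from any start. The lowest, at chr1:69092824-69093733 in an intron of Erbb4, was at 29.2 CPM at E18.5 and 4.00 CPM at P5, or 7.30-fold (4.77 to 11.6) lower. A peak 17.4 kb from the start of Ncam1, at chr9:49815904-49816822, was at 20.4 CPM at E18.5 and 4.09 CPM at P5, or 4.99-fold (3.29 to 8.18) lower. Both genes, a receptor for neuregulin and an adhesion molecule, also had less RNA at P5. The highest, at chr1:176427062-176427502 in an intergenic region, was at 1.43 CPM at E18.5 and 21.9 CPM at P5, or 15.2-fold (8.43 to 34.2) higher, and the neighboring peak at chr1:176427654-176428541 was at 3.89 CPM at E18.5 and 30.1 CPM at P5. Coordinates are those of the E18.5 peak. The P5 partner of the highest pair was wider, at chr1:176426774-176427514, and counts were not scaled for width, so its ratio includes that difference. A peak in an intron of Tmem236, at chr2:14199305-14200264, was at 9.90 CPM at E18.5 and 67.1 CPM at P5, or 6.78-fold (5.30 to 8.89) higher. Counts were taken in myonuclei, while each library's peak list also covers its other nuclei.

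The central 300 bases of 3 of these peaks are shown on the plus strand of GRCm38 with the same motifs in capitals: the lowest pair, the highest pair and the most accessible of the extreme pairs at P5. They span chr1:69093129-69093428, chr1:176427132-176427431 and chr2:14199635-14199934.
Erbb4 intron: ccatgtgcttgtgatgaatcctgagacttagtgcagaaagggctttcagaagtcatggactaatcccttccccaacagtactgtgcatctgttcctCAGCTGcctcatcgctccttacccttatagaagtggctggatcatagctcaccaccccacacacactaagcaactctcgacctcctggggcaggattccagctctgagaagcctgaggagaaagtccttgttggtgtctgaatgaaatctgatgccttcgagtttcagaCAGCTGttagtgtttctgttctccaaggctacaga
Intergenic: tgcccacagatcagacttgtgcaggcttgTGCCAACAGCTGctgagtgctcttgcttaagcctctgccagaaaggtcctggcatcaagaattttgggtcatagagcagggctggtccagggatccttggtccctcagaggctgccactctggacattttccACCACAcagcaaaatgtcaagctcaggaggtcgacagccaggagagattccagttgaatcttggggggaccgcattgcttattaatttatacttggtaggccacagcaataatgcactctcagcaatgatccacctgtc
Tmem236 intron: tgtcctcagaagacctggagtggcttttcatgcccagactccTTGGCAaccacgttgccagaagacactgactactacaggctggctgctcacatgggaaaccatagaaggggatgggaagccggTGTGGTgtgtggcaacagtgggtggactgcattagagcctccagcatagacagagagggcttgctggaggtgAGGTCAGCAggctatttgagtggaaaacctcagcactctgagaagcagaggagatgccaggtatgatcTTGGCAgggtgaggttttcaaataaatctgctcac

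The Erbb4 intron held 2 E-boxes, at 97 and 266, and no other match. The intergenic region held an NFI match at 30 that runs into an E-box at 36, and RUNX at 162. The Tmem236 intron held NFI matches at 43 and 266, RUNX at 126, and a nuclear receptor half-site at 198 that overlaps a Maf half-site at 200, with no E-box.

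Over all distal pairs, the E-box showed the widest gap between lower and higher peaks of the 9 motifs. It was in the central 300 bases of 69.2% of the 1171 pairs that were at least 2-fold lower at P5, of 31.2% of the 2760 higher pairs, and of 37.0% of all 29307. TEAD matches were in 30.7% of lower, 19.8% of higher and 21.0% of all pairs. The nuclear receptor half-site went the other way, with 16.9%, 29.5% and 20.8%. NFI matches were above the background in both sets, at 28.6% and 31.7% against 24.5%. AP-1 stood at 14.1%, 15.5% and 13.5%, Maf at 7.17%, 9.02% and 7.75%, RUNX at 23.1%, 21.3% and 20.8%, MEF2 at 1.71%, 2.86% and 2.15%, and CArG at 2.31%, 1.27% and 1.60%, in the same order. Base composition was close between these distal sets, with a median GC content of 52%, 51% and 51.7%. Near start sites the E-box was in 46.3% of 244 lower pairs, 31.2% of 330 higher pairs and 20.5% of all, where the median GC content differed, at 59.5%, 54% and 64.7%.

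**Figure D5:**
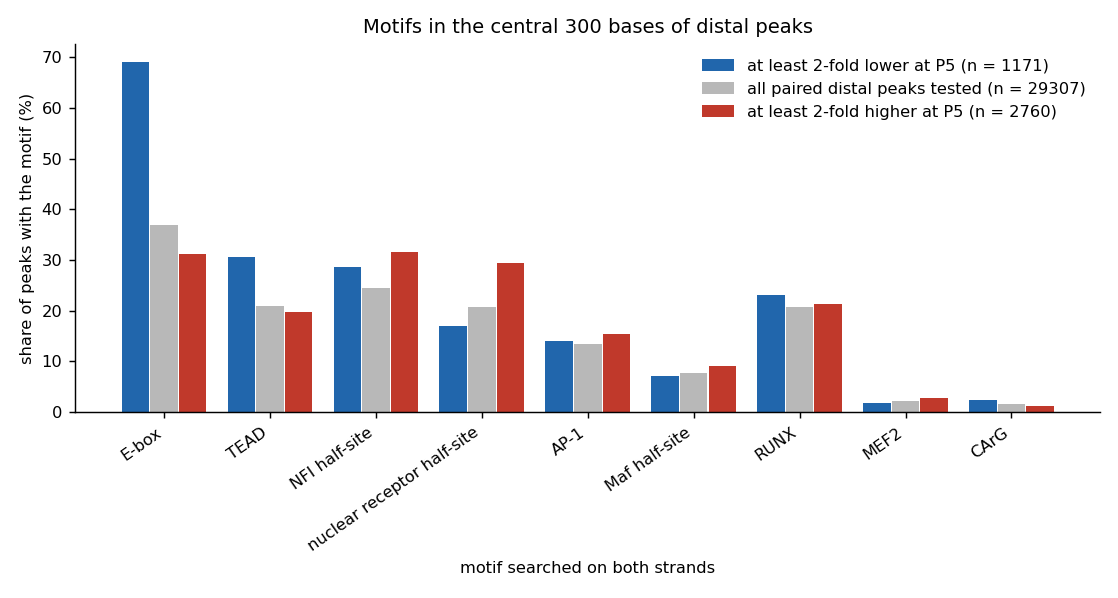
Share of distal peak pairs with each motif in their central 300 bases (vertical axis, percent) by motif (horizontal axis), for all pairs, pairs at least 2-fold higher at P5 and pairs at least 2-fold lower at P5. The E-box stands out at 69.2% of the lower pairs against 37.0% of all pairs.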

How the data were processed

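Nuclei of pooled mouse hindlimb muscle were assayed with 10x Multiome in 1 library per stage. The authors deposited, per library, whole-number counts of UMIs per gene and of ATAC reads per peak, made with Cell Ranger ARC 2.0.0 per the submitters' processing notes, on mm10 (GRCm38), with peaks called per library. These raw counts are not normalized, and 83.1% (E18.5) and 83.2% (P5) of the nonzero ATAC counts were even, so peak intervals were computed on counts divided by 2. Here, nuclei were filtered and selected as stated in the report and counts were summed over the myonuclei of a library. CPM were taken over all genes or all peaks. Genes and paired peaks needed at least 100 counts over both libraries, a difference was called at 2-fold, and peaks were paired at an overlap of 50% of both. Intervals (95%) are exact: Poisson for a CPM, Clopper-Pearson for a share, conditional binomial for a ratio. They cover counting error only, since UMIs of a nucleus and of a pool are not independent animals. With 1 library per stage no test was made.

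Gene starts came from the basic Gencode annotation (release M21) of GRCm38, promoters from RefSeq. Named genes were taken from both ends of the ratios (16 each), with the 10 of largest gain and the 10 of largest loss in CPM, among genes with at least 20 CPM in the library where they were higher that were higher in myonuclei than in other nuclei of that library, leaving out mitochondrial, ribosomal protein, Gm and Rik genes and the 4 genes of the selection. To these were added up to 4 members of each list with the largest absolute log2 ratio and up to 3 with the most UMIs, all myosin heavy chains, and the 12 highest and 12 lowest paired peaks with at least 20 CPM. Genes peaking at P5 and genes differing between P5 nuclei were chosen after their values were seen. The members and lists were chosen with earlier results of these data known. Counts were summed and ratios computed in Python (3.11.15) with scipy (1.17.1), numpy (2.4.6) and pandas (2.3.3), sequences were read with pysam (0.24.0), figures drawn with matplotlib (3.10.9), and scaling factors taken from edgeR (4.0.16) in R (4.3.3). The ratio code was tested on simulated counts. The Cacna1s-/- library entered only the count of kept nuclei.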

Additional observations from a re-analysis of the deposited data

How the results depend on the processing

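Scaling set the split of the gene calls. With edgeR's TMM factors 1144 genes were at least 2-fold higher and 1070 lower, and relative to the median gene 1135 and 1078. A minimum of 30 UMIs gave 1087 higher genes, and a minimum of 30 counts gave 5095 higher peaks. No minimum gave 3424 higher and 5228 lower genes, but there a count of 0 was replaced by 3 UMIs. A gene with 1 UMI in a single library and 0 in the other was thereby called in the reverse direction, so these totals do not count true differences. Myosin shares moved by up to a few percentage points. At a marker threshold of 3% they were 20.3% (Myh3 at E18.5), 75.6% and 55.4% (Myh8 at E18.5 and P5) and 28.3% (Myh4 at P5). Without myonuclei holding over 0.5% of UMIs from other cell types they were 23.0%, 73.2%, 54.9% and 28.7%, with Myh1 at 10.5% at P5. With at least 400 peak counts per nucleus Myh8 was at 74.2% and 55.6%, and as a mean of per-nucleus shares at P5 Myh8 was at 57.4% and Myh4 at 26.8%. Of 157 named genes called 2-fold, 145 to 157 stayed called over the settings that change nuclei or scale, and 156 or 157 kept their sign. The markers of other cells Ptprb and Acan changed sign, to a log2 ratio of -0.010 at the 3% threshold and of 0.28 without the nuclei with RNA of other cells. Apart from scaling, which moves every list median by 0.32, 21 of 186 list medians under other settings moved by at least 0.25. Leaving out the nuclei with RNA of other cells gave -1.15 for fusion, -0.49 for the tendon end, -0.74 for adhesion, -0.89 for caveolae and gap junctions, -1.67 for the cytoskeleton, 0.08 for growth factor signaling, 0.42 for atrophy and 0.54 for immediate early genes. The 3% threshold gave 0.12 for growth factor signaling, 0.39 for immediate early genes and 0.02 for adhesion. Causes were not tested. No paired analysis was possible because each stage was 1 library. Genes under 100 UMIs over both libraries, peaks without a partner in the other library, and differences between animals are beyond what these data can measure.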
